A study of Mus musculus with 2 samples.

Results

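The collagen, laminin, integrin and ADAMTS genes of the mouse were examined for binding of PAX7, the paired box and homeodomain transcription factor of muscle stem cells. Members were the protein-coding genes of the GRCm38.p6 gene table whose symbol begins with Col, Lam, Itga, Itgb or Adamts in the pattern of these families, 110 of 21774 genes. A peak was assigned to a gene when its summit lay inside the gene span, or when an end of that gene was the nearest protein-coding gene end within 50 kb. By this rule 23 members held a peak, from 36 of the 2977 peaks of the list. One of these peaks counted for both Col4a1 and Col4a2. Some symbols belong to genes of another kind, as 4 integrin-named genes encode no integrin subunit and 5 ADAMTS-like genes encode no protease.

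Both libraries came from muscle stem cells sorted from C57BL/6 mice that carried the Pax7-YFP KI genotype and were untreated. KI is read here as a knock-in of the fluorescent protein YFP. For the ChIP library a GFP antibody, which also binds YFP, was used, and it had 10622111 tags after filtering, and the input DNA library had 20429667. The antibody recognises the fluorescent protein and not PAX7 itself, and the labels do not say how YFP is joined to PAX7. ChIP of cells without the knock-in was not analysed here. Age, sex and the number of animals pooled are not given in the sources used here. With 1 library of each kind there was no replicate check, and no difference was tested. RNA was not measured, so the labelled cell type could not be checked against markers, and a peak does not tell whether the gene is expressed.

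Muscle stem cells lie between the fibre membrane and a basement membrane of laminins and type IV collagen. Laminins are trimers of an alpha, a beta and a gamma chain, and collagens are trimers with a triple helix that form fibrils, networks or membrane-bound molecules. Integrins are receptors of an alpha and a beta subunit that tie the cell to this matrix. ADAMTS enzymes are secreted metalloproteases that trim procollagens and cut proteoglycans. Integrins of the beta 1 class, collagen V and collagen VI are known from mouse genetics to take part in keeping muscle stem cells in their quiescent niche.

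The promoters with a listed start closest to a summit are shown to make the distances to the peaks concrete. RefSeq promoter windows of GRCm38.p6, which run from 250 bases before a start to 50 after it, were listed for 76 of the 110 members and for 17 of the 23 with a peak. Of the 36 peaks, 25 belonged to a member with a listed start, and none of these overlapped its window. The other 11, at Adamts5, Lamc1, Itgb2, Col1a1, Lama4 and Adamtsl1, could not be placed relative to their own start, and one of them lay 158 bp beyond an end of Adamts5. Only Adamts1, Itgb6 and Col1a2 had a summit within 2 kb of a listed start, at 1094, 1401 and 1895 bp downstream of it. Their windows are printed with the 50 bases from the start onwards in capitals.
Adamts1 (chromosome 16, 85803064 to 85803363, minus strand): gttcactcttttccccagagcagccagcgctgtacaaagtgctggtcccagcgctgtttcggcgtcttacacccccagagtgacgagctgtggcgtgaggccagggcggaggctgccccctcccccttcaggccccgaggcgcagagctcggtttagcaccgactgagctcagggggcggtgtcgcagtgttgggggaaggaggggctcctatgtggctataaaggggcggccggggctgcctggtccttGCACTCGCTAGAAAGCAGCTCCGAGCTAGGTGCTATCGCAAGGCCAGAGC
Itgb6 (chromosome 2, 60722554 to 60722853, minus strand): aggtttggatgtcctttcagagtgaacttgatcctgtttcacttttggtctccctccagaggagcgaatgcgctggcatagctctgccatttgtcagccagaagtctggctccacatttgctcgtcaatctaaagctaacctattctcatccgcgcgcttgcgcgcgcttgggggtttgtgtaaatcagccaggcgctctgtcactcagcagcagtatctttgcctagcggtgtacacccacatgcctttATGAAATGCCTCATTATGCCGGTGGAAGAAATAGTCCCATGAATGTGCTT
Col1a2 (chromosome 6, 4505368 to 4505667, plus strand): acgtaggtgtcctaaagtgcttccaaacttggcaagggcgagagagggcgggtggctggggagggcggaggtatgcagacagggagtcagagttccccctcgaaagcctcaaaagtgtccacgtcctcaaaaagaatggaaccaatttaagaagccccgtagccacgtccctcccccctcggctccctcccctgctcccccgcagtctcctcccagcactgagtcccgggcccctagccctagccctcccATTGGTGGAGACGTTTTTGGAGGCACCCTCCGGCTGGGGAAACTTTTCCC
The window of Col4a2 is shown because the listed starts of Col4a2 (plus strand) and Col4a1 (minus strand) lay 21 bp apart and the genes run in opposite directions, so that 78 of its 300 bases also belong to the window of Col4a1.
Col4a2 (chromosome 8, 11312555 to 11312854, plus strand): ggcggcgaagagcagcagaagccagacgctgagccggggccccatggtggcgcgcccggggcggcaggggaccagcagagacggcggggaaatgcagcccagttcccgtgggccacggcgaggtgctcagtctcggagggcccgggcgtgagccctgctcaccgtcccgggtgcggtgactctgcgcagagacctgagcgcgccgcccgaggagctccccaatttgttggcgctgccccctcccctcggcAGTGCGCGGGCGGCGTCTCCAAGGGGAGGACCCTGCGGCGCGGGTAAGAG

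Short motifs were searched in these windows on both strands. The 6 motifs were TAAT followed after 2 bases by ATTA, the same letters spaced by 3 bases, the homeodomain motif TAATTA, the paired-domain motif GTCACGC, the AP-1 motif TGANTCA and the E-box CAGCTG, and none of the 4 printed windows held any of them. A spaced form can contain TAATTA, so these motifs overlap. The spaced forms, which homeodomain dimers recognise, occurred in 0 of 82 windows of members and in 0.315% and 0.362% of the 21263 windows of all protein-coding genes. At shares this low, 82 windows are too few for a count of 0 to show a difference. TAATTA stood in 4.88% of members' windows and 4.53% of all, GTCACGC in 1.22% and 2.66%, and TGANTCA in 4.88% and 6.99%. CAGCTG, an E-box of the kind that myogenic bHLH factors recognise, stood in 23 of 82 members' windows (28%) and in 15.6% of all windows. Among members with a peak it stood in 5 of 19 windows (26.3%), those of Adamts2, Col5a3, Col6a5, Itga2b and Itgb5. The first such site of each window is printed with up to 10 bases on either side and the motif in capitals, in the direction of the gene.
Adamts2 (24 bp before the start): tgcggtgctgCAGCTGcgggcggctc
Col5a3 (81 bp before the start): tttttccgtgCAGCTGtgggtccctt
Col6a5 (229 bp before the start): acctctcagcCAGCTGagatggtcgt
Itga2b (248 bp before the start): gtCAGCTGcatgggggag
Itgb5 (122 bp before the start): acaagtgggtCAGCTGtgacagccac
A match is a description of these letters. The sequences under the peaks were not analysed here, so whether any motif lies under a summit is unknown.

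Peaks were found at 23 of the 110 members (20.9%, Wilson 95% interval 14.4 to 29.4%), against 9.63% of all 21774 protein-coding genes. The intervals of the 4 families overlapped. Collagens had 9 of 44 genes with a peak (20.5%, 11.2 to 34.5%), laminins 3 of 11 (27.3%, 9.75 to 56.6%), integrins 5 of 31 (16.1%, 7.09 to 32.6%) and ADAMTS genes 6 of 24 (25%, 12 to 44.9%). These genes are long, with a median span of 75.9 kb against 17.2 kb for all protein-coding genes, and a longer gene holds more summits under this rule. Over 150 kb, 6 of 27 members (22.2%, 10.6 to 40.8%) had a peak, against 25.6% of all genes of that span. Between 50 and 150 kb it was 8 of 39 (20.5%, 10.8 to 35.5%) against 15.4%. Between 10 and 50 kb it was 8 of 41 (19.5%, 10.2 to 34%) against 9.18%, and under 10 kb it was 1 of 3, the gene Adamts1, against 4.6%. At the shares of all genes in these 4 span classes, 16.8 members (15.3%) would have had a peak, where 23 did. The members' share thus lay above that of all genes by a smaller margin once span was counted, and among the longest genes it did not lie above it.

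**Figure D1:**
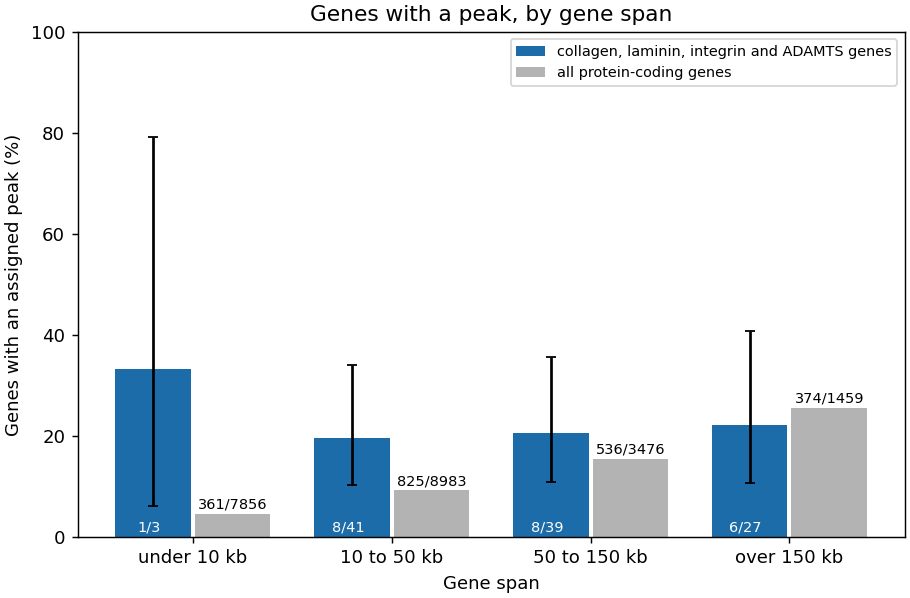
Share of genes with an assigned peak (percent) by gene span, for the 110 collagen, laminin, integrin and ADAMTS genes (left bars, with Wilson 95% intervals) and for all 21774 protein-coding genes (right bars). Numbers on the bars count genes with a peak over genes. The members stay close to 20% from 10 to 150 kb while the share of all genes climbs to 25.6% in the longest class.

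The members' peaks were close to the whole list in strength. Their median fold enrichment (pileup plus 1, over background plus 1; the authors' value) was 7.45 (quartiles 6.55 and 8.73), against 7.35 (6.27 and 8.82) for all 2977 peaks. The median ChIP pileup was 15 fragments over the summit in members' peaks and also 15 in the whole list. Only 2 of the 36 members' peaks (5.56%) reached 10-fold, against 430 of all peaks (14.4%). The input background at members' peaks ran from 0.977 to 2.08 fragments after scaling to the ChIP depth, and 14 of 36 (38.9%) stood at its floor of 0.977, against 44.1% of all peaks. An interval beside a fold is the exact Poisson 95% interval of the ChIP count, with the input background taken as known, and covers counting error only.

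**Figure D2:**
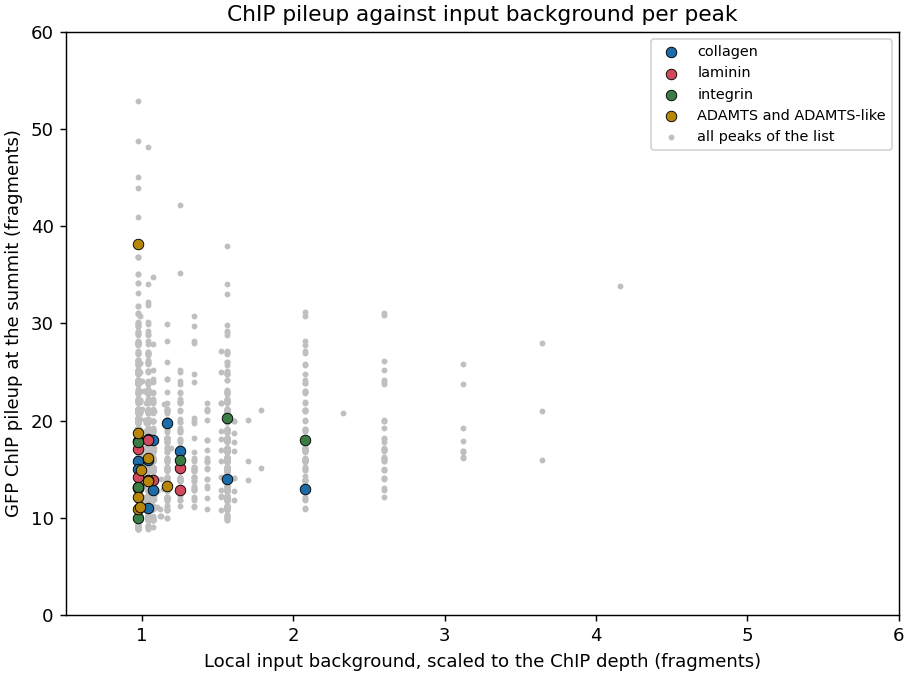
GFP ChIP pileup at the summit (fragments, vertical) against the local input background scaled to the ChIP depth (fragments, horizontal) for each peak, with members coloured by family on top of all peaks of the list in grey. Points are moved by at most 0.25 fragments up or down so that they can be told apart, and 25 peaks beyond the axes are not drawn. Members' peaks lie between 10 and 38 ChIP fragments and at no more than 2.08 input fragments, and the single high one is Adamts2.

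The members' peaks lay mostly within the genes. Summits lay inside the member in 28 of 36 peaks (77.8%, 61.9 to 88.3%), against 58.5% (56.5 to 60.4%) of the 2520 peaks assigned to any protein-coding gene that lay inside one. Within 1000 bp of a gene end there were 2 of 36 (5.56%, 1.54 to 18.1%), at Adamts5 and Adamts20, against 34.4% of all assigned peaks. A listed promoter window of any gene was overlapped by 0 of the 36 peaks, against 656 of 2880 peaks of the list (22.8%). The 2880 leave out peaks where RefSeq lists no windows. For 11 of the 36 the member's own window was not listed, and this difference was not tested. The share of all peaks within 2 kb of a listed start was not counted. Counted per length, the members held 2.16 summits per Mb of span (28 in 12.9 Mb) and all protein-coding genes 1.43 (1505 in 1049 Mb). No interval was computed for these densities, the members' value rests on few summits, and the difference was not tested. Where a start was listed, 21 of 26 pairs of a peak and a member had the summit downstream of the start and 5 upstream. Downstream here includes the summits of Col6a5 and Col5a3, which lay beyond the far end of the gene. Upstream includes the summit of Adamts20, which lay inside the gene but before its listed start. The same split was not counted over all assigned peaks. Whether summits fell in exons, introns or UTRs was not analysed here. These positions follow in part from the assignment rule, which takes any summit in a span but only the nearest gene outside it, and the part of gene length in them was not tested.

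Type IV collagen, the network of basement membranes, had the largest number of peaks among collagens. Its chain genes Col4a1 and Col4a2 adjoin on chromosome 8 and together held 4 peaks over 251 kb. At Col4a2 the strongest (11382399 to 11382627) had 20 ChIP fragments against an input background of 1.16 and a fold of 9.71 (6.11 to 14.7). A neighbour 2540 bp further (11384906 to 11385125) had 16 against 0.977 and 8.60-fold (5.13 to 13.6). Both lay inside Col4a2, 69681 and 72221 bp downstream of its start. At Col4a1 a peak inside the gene (11249616 to 11249801), 63105 bp downstream of its start, had 16 fragments against 1.04 and 8.33-fold (4.97 to 13.2). The weakest of all members' peaks (11358966 to 11359137), with 13 fragments against 2.08 and 4.55-fold (2.57 to 7.54), lay inside Col4a2 but nearer to an end of Col4a1, and was counted for both. The intervals of the stronger 3 overlapped widely. The other network collagens, among them Col4a3, Col4a4, Col8a1 and Col10a1, had no peak. In this class 2 of 9 genes had one (22.2%, 6.32 to 54.7%), against 9.63% of all genes.

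Fibrillar collagens, which build the fibrils of the interstitial matrix, had a peak at 3 of 11 genes (27.3%, 9.75 to 56.6%), against 9.63% of all genes. Col1a1, a chain of type I collagen, had 18 fragments against 1.04 at chromosome 11, 94913435 to 94913948, giving 9.31-fold (5.72 to 14.4). Its summit was 22437 bp away from the gene, and the next protein-coding gene was Sgca at 48990 bp. Col1a2, the partner chain, had a weaker peak inside the gene with 11 fragments against 1.04 and 5.88-fold (3.18 to 10.1). Col5a3, a chain of collagen V, had 13 fragments against 0.977 and 7.08-fold (4.01 to 11.8), 9043 bp beyond the gene and 54060 bp downstream of its start. The main collagen V genes Col5a1 and Col5a2 had no assigned peak, with the nearest summits 983 and 123 kb away, nor did Col3a1 at 276 kb.

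Col19a1, a fibril-associated collagen, carried 3 peaks inside its 330-kb span, at spacings of 46175 and 45712 bp. They had 18 fragments against 0.977 (chromosome 1, 24517510 to 24517768), 17 against 1.25 (24563204 to 24563418) and 13 against 1.07 (24471200 to 24471551). The folds were 9.61 (5.90 to 14.9), 7.99 (4.84 to 12.5) and 6.75 (3.82 to 11.2), so the peaks did not differ beyond counting error. All lay in the part of the gene nearer to its start, 24099 to 115986 bp downstream. It was the only one of 9 fibril-associated genes with a peak (11.1%, 1.99 to 43.5%), against 9.63% of all genes. Col6a5, a chain of the beaded-filament collagen VI, had 18 fragments against 1.07 and 9.16-fold (5.63 to 14.2) at chromosome 9, 105853315 to 105853565. That summit lay 2648 bp beyond the far end of the gene, between Col6a5 and Col6a6. The main collagen VI genes Col6a1, Col6a2 and Col6a3 had none, with nearest summits 205, 308 and 131 kb away. The transmembrane collagen gene Col23a1 had 8.09-fold (4.75 to 13.0; 15 fragments against 0.977; chromosome 11, 51539730 to 51539916), 44087 bp inside the gene from its nearer end. Col18a1, whose product is the precursor of endostatin, had 5.86-fold (3.38 to 9.57; 14 fragments against 1.56) at 40286 bp upstream of its start, inside the noncoding RNA gene Gm35837.

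Among laminins, the peaks were at Lamc1, Lama2 and Lama4, which encode a gamma and a pair of alpha chains, and at 0 of 3 beta-chain genes. Lamc1, the gamma chain found in most laminins, held 3 peaks inside the gene on chromosome 1. They had 18 fragments against 1.04 (153292259 to 153292503), 17 against 0.977 (153266908 to 153267091) and 13 against 0.977 (153317451 to 153317637). Their folds were 9.31 (5.72 to 14.4), 9.10 (5.51 to 14.3) and 7.08 (4.01 to 11.8), and the summits were 25429 and 25129 bp apart.

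Lama2 encodes the alpha chain of the main laminin of the muscle fibre basement membrane, and its loss causes a congenital muscular dystrophy. It had 3 peaks, with 14 fragments against 0.977 (chromosome 10, 27652928 to 27653152), 14 against 1.07 (27294291 to 27294630) and 15 against 1.25 (27322616 to 27322851). The folds, 7.59 (4.38 to 12.4), 7.24 (4.17 to 11.8) and 7.10 (4.17 to 11.4), were close together and close to the median of the list. The first lay 36052 bp upstream of the listed start, inside the noncoding RNA gene Gm30165, and the others deep inside the 636-kb gene, 322483 and 294197 bp downstream. Lama4, an alpha chain of vessel and nerve basement membranes, had 13 fragments against 1.25 and 6.22-fold (3.52 to 10.3) at chromosome 10, 38946074 to 38946365, 19286 bp outside the gene. Of the laminins without an assigned peak, Lama1 had the nearest summit, at 45.4 kb, which was closer to another gene. Lamb2 was at 76.9 kb, Lamb1 at 295 kb and Lama5 at 520 kb.

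Among integrins, 4 of 9 beta-subunit genes (44.4%, 18.9 to 73.3%) had a peak and 1 of 18 alpha-subunit genes (5.56%, 0.988 to 25.8%), against the 9.63% of all genes. The median spans of the classes were 47.9 and 56.4 kb, and the difference between them was not tested. Itgb1, the common partner of the laminin and collagen receptors, had 2 peaks near the end of the gene on chromosome 8. The stronger (128731787 to 128732196) had 20 fragments against 1.56 and 8.20-fold (5.16 to 12.5), 1544 bp inside the end and 46381 bp downstream of the start. The weaker (128727373 to 128727631) had 18 fragments against 2.08 and 6.17-fold (3.79 to 9.56), 4537 bp away from it. Both backgrounds were above the members' median of 1.04.

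Itgb6, which pairs with the alpha V subunit and activates latent TGF-beta in epithelia, had 2 peaks within 9 kb of its start on chromosome 2. One (60721097 to 60721347) had 18 fragments against 0.977 and 9.61-fold (5.90 to 14.9), the other (60713882 to 60714116) 14 against 1.04 and 7.35-fold (4.24 to 12). Itgb2, the beta subunit of leukocyte integrins, had 16 fragments against 1.25 and 7.55-fold (4.51 to 12) at chromosome 10, 77543347 to 77543518. Itgb5, another partner of the alpha V subunit, had 13 against 0.977 and 7.08-fold (4.01 to 11.8) at chromosome 16, 33916901 to 33917072. Each of these summits lay inside its gene. Itga2b, the platelet integrin subunit, was the single alpha gene, with 10 fragments against 0.977 and 5.56-fold (2.93 to 9.81) at chromosome 11, 102467198 to 102467369, the lowest pileup among the members. Itga7, the alpha subunit of the main laminin receptor of muscle, had no peak within 343 kb, and Itga5 and Itgav had none within 345 and 578 kb.

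Adamts2, which removes the amino-terminal propeptide of fibrillar procollagens, had the strongest peak of all members. It had 38 ChIP fragments against an input background of 0.977 at chromosome 11, 50678790 to 50679136, giving 19.7-fold (14.1 to 26.9) and a −log10 q of 41.0. It ranked 7 among the 2977 peaks by fold, and the lower bound of its interval was above the fold of every other member's peak, though below the upper bounds of the next strongest. The summit lay inside the gene (50602085 to 50807573), 76857 bp downstream of the listed start, and no other protein-coding gene end was closer than 132143 bp.

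Adamts5 and Adamts1, which cut the proteoglycans aggrecan and versican, neighbour each other on chromosome 16 and held 5 peaks over little more than 107 kb. Adamts5 had 4 peaks, the most of any member. Inside the gene they had 19 fragments against 0.977 (85879181 to 85879425), 14 against 1.04 (85882338 to 85882562) and 13 against 1.16 (85887352 to 85887555). Their folds were 10.1 (6.29 to 15.5), 7.35 (4.24 to 12) and 6.47 (3.66 to 10.7). The fourth (85901128 to 85901362), with 11 against 0.977 and 6.07-fold (3.28 to 10.5), lay 158 bp beyond the upper end of the gene, inside the noncoding RNA gene Gm46558. The 4 summits fell within 22 kb, and were counted as separate peaks as the list gives them. Adamts1 had 15 fragments against 0.993 and 8.03-fold (4.71 to 12.9) at 85801919 to 85802114, inside the gene.

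Of the other ADAMTS members, Adamtsl1 had 16 fragments against 1.04 and 8.33-fold (4.97 to 13.2) at chromosome 4, 86058283 to 86058454, 370014 bp inside the gene from its nearer end. Adamtsl4, whose product binds fibrillin microfibrils, had 6.58-fold (3.64 to 11.1) 14453 bp upstream of its start, and Adamts20, a versican-cutting protease, 6.05-fold (3.27 to 10.4) at 861 bp inside an end of the gene. Adamts20 runs on the minus strand, so this is the end at which its span begins. Its listed start was another one, 26863 bp downstream of the summit. Proteases had a peak at 4 of 19 genes (21.1%, 8.51 to 43.3%) and ADAMTS-like genes at 2 of 5 (40%, 11.8 to 76.9%), against 9.63% of all genes.

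**Figure D3:**
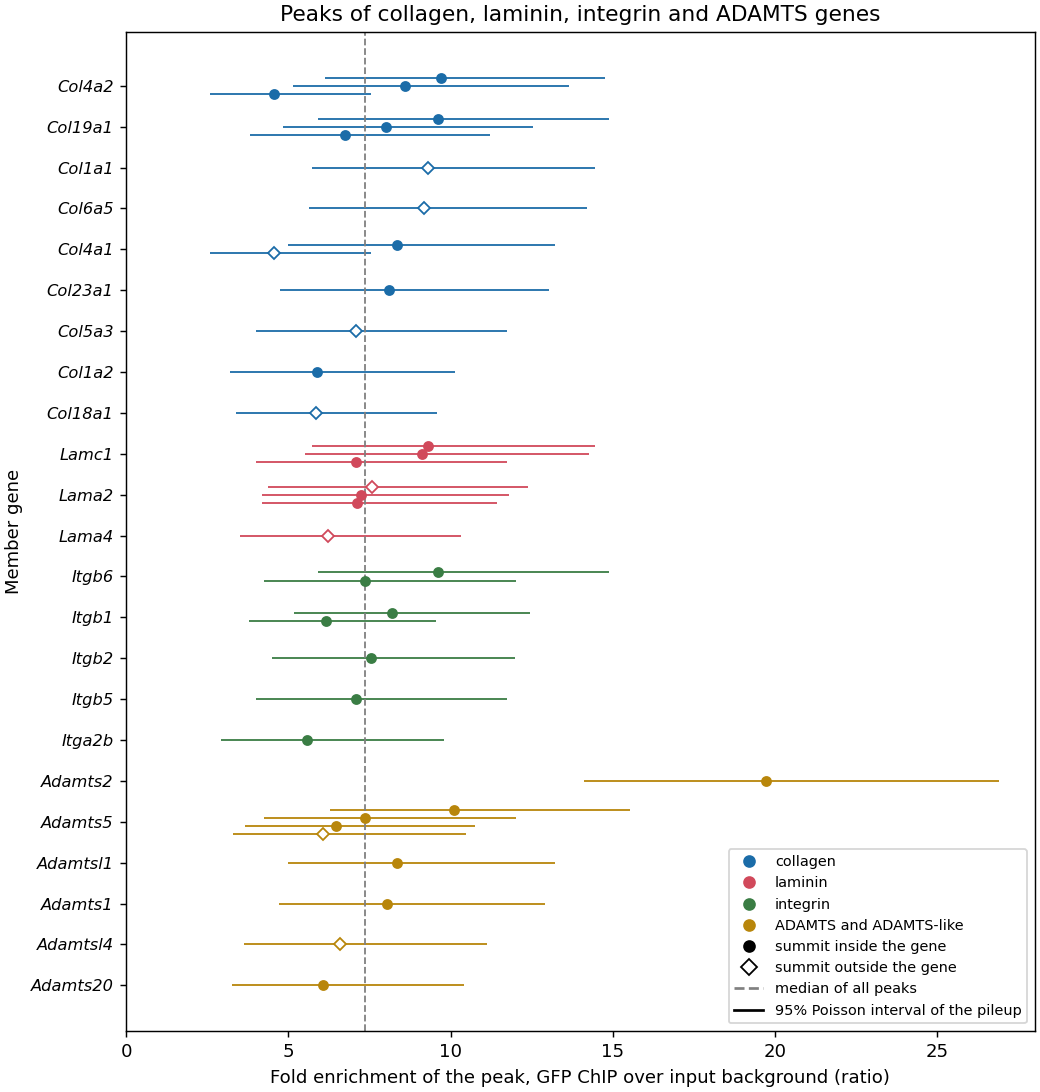
Fold enrichment of each assigned peak (ratio of GFP ChIP over input background, horizontal) for the 23 members with a peak, grouped by family, with exact Poisson 95% intervals of the pileup. Filled circles have the summit inside the gene, open diamonds outside, and the dashed line is the median of all peaks, 7.35. Adamts2 at 19.7 stands to the right of all others, and the intervals of the other peaks all overlap one another. The peak shared by Col4a1 and Col4a2 is drawn at both.

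Several peaks in a gene were common among the members with a peak, at 8 of 23 (34.8%), against 372 of the 2096 protein-coding genes with a peak (17.7%). These were Adamts5 with 4, Col4a2, Col19a1, Lamc1 and Lama2 with 3, and Col4a1, Itgb1 and Itgb6 with 2. The members with a peak had a median span of 114 kb, against 39.1 kb for all genes with a peak. Spacings between neighbouring summits ran from 2540 bp at Col4a2 to 330249 bp at Lama2.

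**Figure D4:**
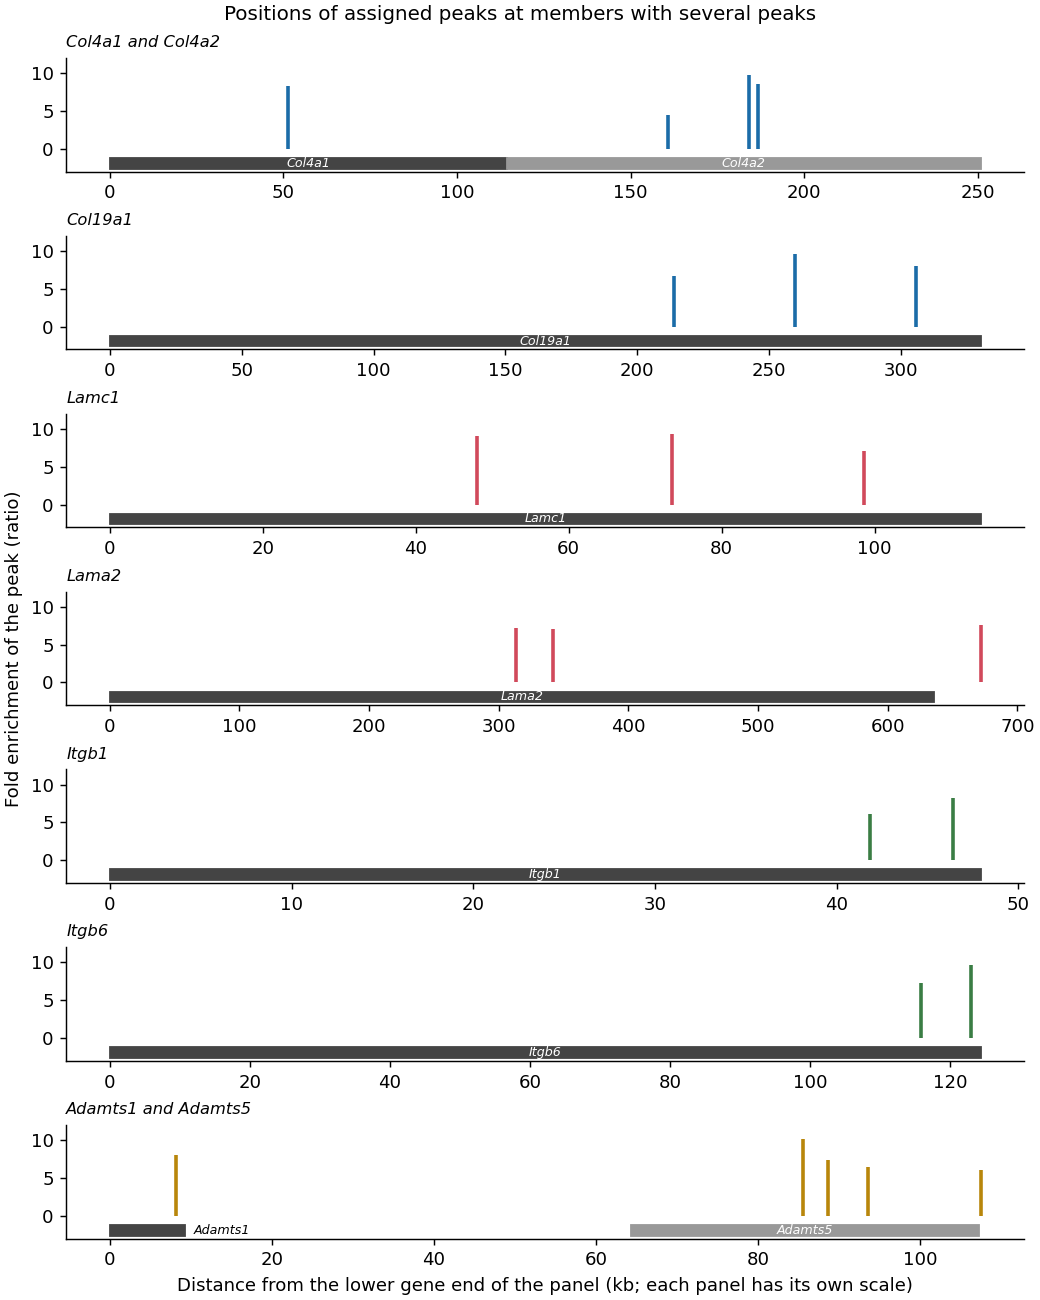
Positions of assigned peaks at the members with several peaks, with Adamts1 beside Adamts5. The horizontal axis is the distance in kb from the lower-coordinate gene end of each panel, bars mark gene spans and the height of each line is the fold enrichment of the peak. The peaks of Itgb1 and Itgb6 lie at one end of the gene and those of Adamts5 within 22 kb, while those of Col19a1, Lamc1 and Lama2 spread over 91.9, 50.6 and 359 kb.

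The 87 members without an assigned peak had their nearest summit at a median of 214 kb from the gene. In 10 of them a summit lay within 50 kb but nearer to an end of another gene, the closest being Itga2 at 14.3 kb, Col28a1 at 15.8 kb, Adamts4 at 19.1 kb and Itga9 at 24.5 kb. At the 50 kb limit, the farthest peaks taken lay at 40286 bp (Col18a1, 5.86-fold) and 46200 bp (Col4a1, 4.55-fold). Among summits beyond the limit whose nearest protein-coding gene was a member, the closest were a pair at 122875 and 123650 bp from Col5a2. They had 5.86 and 7.56-fold and 14 fragments each against 1.56 and 0.984. Summits nearer to another gene lay closer to some members, as at Adamts12 (50.5 kb) and Lamb3 (51.9 kb).

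Other genes of the matrix and of adhesion, a list of 116 that holds no member, were set beside the members. Peaks stood at 26 of them (22.4%, 15.8 to 30.8%), beside the 20.9% of the members and the 9.63% of all protein-coding genes, with 90 genes without a peak. Without the peaks below the median −log10 q, the shares were 13.6% of the members (15 genes), 7.76% of the other list (9 genes) and 5.23% of all genes. The gap between the lists in that setting rests on few genes and was not tested. Their median fold was 6.75 over 36 peaks and their median span 34 kb. The highest folds were at Sdc4, a syndecan of the muscle stem cell surface (11.5-fold, 25 fragments against 1.25), and at Has2, a hyaluronan synthase (11.1-fold, 22 against 1.07). Tnxb, which encodes a tenascin, followed at 10.6-fold (20 against 0.977) and Tln2, a talin that links integrins to actin, at 10.4-fold (31 against 2.08). Ltbp1 and Ltbp4, which bind latent TGF-beta, had 8.59-fold (21 against 1.56) and 7.72-fold (15 against 1.07). Tln2 carried 4 peaks, and Sdc4 and Has2 carried 3 each. Loxl1, Lox, Serpinh1 and P4ha2, which act on collagen folding and crosslinking, had 7.35, 6.75, 7.59 and 6.64-fold. Their summits lay outside the genes, at 11066, 42, 7234 and 38313 bp in that order. These 4 genes were chosen after their values were seen. The summits of the Has2 and Ltbp4 peaks given above also lay outside the gene, at 32152 and 2790 bp.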

How the data were processed

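Chromatin immunoprecipitation with sequencing compared 1 GFP ChIP library with 1 input DNA library of sorted muscle stem cells, grouped by antibody and title in the labels. GRCm38, bcl2fastq 2.16, HISAT2 and MACS2 2.1.1 are named, without roles, per the submitters' processing notes. Peaks were called by the authors on 1 library against 1, at a q-value limit of 0.01, fragment length 172 bp and effective genome size 1.87e+09, per the file headers. Per the file headers, the deeper library is brought to the depth of the shallower one, which here means the input, by a factor computed here from the tags as 0.52. Pileup, as the authors deposited it, is a signal that counts ChIP fragments over the summit. Their deposited fold is the ratio of pileup plus 1 to local background plus 1. The deposited −log10 q-value comes from the peak caller.

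The background was computed here as pileup plus 1 over fold, minus 1. It is the caller's local background and not always the input at the summit itself. Its floor of 0.977 is ChIP tags times fragment length over genome size. Gene spans came from RefSeq's GRCm38.p6 table, which gives no exons, with 126 protein-coding genes left out because their coordinates belong to scaffolds. Start sites and strand came from RefSeq's promoter windows, which do not cover chromosome 18. They also lack some genes elsewhere, among them 6 of the 23 members with a peak. The assignment was tested on made-up genes and peaks. Shares carry Wilson 95% intervals, and tags are not independent molecules, so intervals cover counting error only. Python 3.11.15, numpy 2.4.6, pandas 2.3.3, scipy 1.17.1 and matplotlib 3.10.9 were used.

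The members, lists and comparisons were chosen with earlier results of these data known. Full values are given for the 12 members with the highest folds, for every laminin and integrin gene with a peak, for members with 2 or more peaks, and for the 6 highest of the other matrix list. Other named members were chosen after their values were seen, as were the promoter windows printed. The sequence under the peaks was not used here. Alternatives were assignment by span only, by nearest end only, within 10 kb and without a limit, the median −log10 q, the highest pileups, interval overlap, high backgrounds and 1 gene per peak.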

Additional observations from a re-analysis of the deposited data

How the results depend on the processing

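Across 9 alternatives, 73 of 80 recomputed values stayed within 1.5 times the count or within the interval of the value. When the peaks below the median −log10 q were dropped, 15 members, 18 members' peaks, 3 integrin genes and 9 of the other matrix genes were left. With the summit required inside the span, 5 collagen genes and 14 of the other matrix genes had a peak. With a 10 kb limit, 90.3% of the members' peaks lay inside the member. The first setting keeps 1501 peaks, and the others change only which peaks are assigned. Leaving out high backgrounds could not move the members' values, as the backgrounds of their peaks reached at most 2.08. Leaving out the highest pileups removed none of the members' 36 peaks. The values recomputed under these settings are counted among the 73, and for the members they show no stability. The share of members with a peak was 2.17 times that of all genes, and 2.04 to 2.82 times in the alternatives. These ratios do not take gene span into account. At the shares of all genes in the span classes, 16.8 members would have had a peak under the main rule, where 23 did. No paired analysis was possible because there was 1 library per group. A typical peak rested on 15 fragments, so differences between members' folds other than Adamts2 are mostly within counting error.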

Other observations

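The X chromosome held 3 members, Col4a5, Col4a6 and Itgb1bp2, and none had a peak. The whole list had 17 peaks on that chromosome, and the nearest summits to Col4a5 and Col4a6 were 2206 and 2421 kb away. Type IV collagen genes had peaks at Col4a1 and Col4a2 and at none of the other 4, of which Col4a3 and Col4a4 lie on chromosome 1.

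Noncoding RNA genes overlapped 4 of the 36 summits, namely Gm30165 upstream of Lama2, Gm33436 within Itgb6, Gm46558 beside Adamts5 and Gm35837 upstream of Col18a1. The share of all peaks with a summit in a noncoding RNA gene was not counted, so whether 4 of 36 is unusual is unknown. Nothing is known here of the expression of these noncoding genes in these cells.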
